A study of Mus musculus with 16 samples.

Results

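In mouse embryonic stem (ES) cells a minority of the extracellular matrix genes, led by type IV collagen and laminin chains, rose with time in culture, and a pair of collagen assembly genes also differed after removal of Rybp. The genes were the collagen chains, the laminin chains, the basement membrane linkers Nid1, Nid2 and Hspg2, the matrix glycoproteins Sparc and Fn1, and the collagen chaperone and hydroxylase genes Serpinh1, P4ha1, P4ha2, P4ha3, Plod1 and Plod2. They were chosen by name, every symbol of the form of a collagen or laminin chain plus these 11 genes. The rule found 63 of the 18193 genes that had a probe set with a single gene symbol, and the probe set with the highest mean log2 intensity stood for each. They comprise 9 basement membrane collagens, 10 laminin chains, 3 linkers, 11 collagens typical of fibroblasts, 7 cartilage collagens, 15 other collagens, 6 assembly genes and 2 glycoproteins.

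ES cells of a 129/B6 hybrid background, clones 10 and 15, were profiled on Affymetrix arrays. The KO cells had received 800 nM 4-hydroxytamoxifen (OHT) for 24 hours to delete Rybp, which encodes a subunit of variant Polycomb repressive complex 1, and the controls were the same clones without OHT, labelled wild type. RNA was taken at day 4 and at day 12, which gave 4 groups of 4 arrays, each with replicates 1 and 2 of both clones. OHT was given to no control, so a response to the drug or to recombinase activity and a response to the lost gene cannot be told apart. Whether replicates were separate cultures is not labelled, and p-values then reflect only array-to-array spread, which may be technical. All cells grew in serum with ESGRO, and the growth protocol names both irradiated mouse embryonic fibroblast feeders and gelatin as the surface, without assigning arrays to either. Each group rests on 2 clones.

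Basement membranes are thin sheets built from a laminin network and a type IV collagen network, which the nidogens and perlecan (Hspg2) join. In the early mouse embryo the primitive endoderm and its parietal descendants secrete large amounts of both, with type IV collagen of the alpha1 and alpha2 chains and laminin of the alpha1, beta1 and gamma1 chains. Fibroblasts instead secrete fibrillar collagens, chiefly types I, III and V, and both kinds depend on prolyl hydroxylases, which stabilise the triple helix, and on the chaperone Hsp47, the product of Serpinh1.

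The values are deposited linear intensities with a median of 93.3 and a 25th percentile of 28.3 on every array. The mean of 32 members lay above that median and the mean of 11 lay below that percentile. The 32 include 13 of the 22 basement membrane genes and 9 of the 11 fibroblast collagens, but none of the 7 cartilage collagens. In the Rybp probe set that checks the labels, also annotated to a pseudogene, control arrays read 2047 to 3434 and KO arrays 84.9 to 256. A second Rybp probe set, with the same annotation, went the other way, at 157 to 2771 on control and 2815 to 7612 on KO arrays, without overlap. Where either probe set lies relative to the deleted part was not analysed here. Markers of ES cells were bright on all arrays, with a mean log2 intensity over 10 genes of 12.6 to 13.2. At day 4 the arrays of replicate 1 and replicate 2 differed in several members, which is described beside the results it touches. The word higher or lower is used where limma gave an adjusted p under 0.05, with Benjamini-Hochberg adjustment over all 18193 genes, and errors on log2 fold changes are standard errors (SE).

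Between day 4 and day 12 Col4a1, Col4a2, Lama1, Lamb1, Sparc and 3 collagen assembly genes rose in control and in KO cells, Lamc1 and Nid2 rose in KO cells, and no member fell. The comparisons over time and those between conditions share groups of arrays. In control cells 8 of 63 members were higher at day 12 (0.654% of all genes were) and 0 were lower (0.341% of all genes). In KO cells 10 of 63 were higher (2.24% of all genes) and 0 were lower (1.03% of all genes). The median log2 fold change over the 63 members was 0.34 in control and 0.45 in KO cells, against 0.02 over all genes in both. At an unadjusted p under 0.05 there were 17 members in control and 17 in KO cells, where 13.9% and 15.8% of all genes stood. With the 8 pairs of a control and a KO array entered as a random block, 8 members were higher in control (0.665% of all genes) and 10 in KO cells (2.19%), and 0 were lower in either (0.291% and 1.02%). With only the 8 arrays compared, Serpinh1 alone kept its call in control cells, where the other 7 had a limma adjusted p from 0.0909 to 0.207. In KO cells Col4a1, Col4a2, Lama1, Sparc and Serpinh1 kept theirs, and the other 5 had a limma adjusted p from 0.0680 to 0.134.

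Col4a1 and Col4a2, which encode the 2 chains of the common type IV collagen, changed most. In the control cells at day 4 the intensity of Col4a1 was 654 and 279.6 in replicates 1 and 2 of clone 10 and 1057 and 402 in those of clone 15, and all values below are in this order. At day 12 it was 5588, 6999, 3799 and 5538. In KO cells it was 902, 345, 1419.8 and 432 at day 4 and 7905, 5335, 9535 and 7170.3 at day 12. No day 4 array reached any day 12 array in either condition, and the log2 fold change over time was 3.34 ± 0.47 in control (limma adjusted p = 0.00477) and 3.47 ± 0.47 in KO cells (limma adjusted p = 0.00162), a fold of 10.1 and 11.1. A second Col4a1 probe set rose by 3.48 and 2.97 on the log2 scale. Col4a2 read 387, 151, 531 and 195 in control cells at day 4 and 2651, 3189, 1741 and 2261 at day 12. Its KO arrays read 388, 183, 716 and 252 at day 4 and 3464, 2498, 3739 and 2452 at day 12. The 2 days were again apart in both conditions, with log2 fold changes of 3.11 ± 0.45 (limma adjusted p = 0.00573) and 3.15 ± 0.45 (limma adjusted p = 0.00236).

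The starts of these genes overlap head to head, which is why their shared start is shown. In the RefSeq annotation of GRCm38.p6 the first base of Col4a1, on the minus strand of chromosome 8, is 11312826, and that of Col4a2, on the plus strand, is 11312805, so that the 22 bases between them lie within the first transcribed bases of both genes. On the plus strand they read as follows, with no part marked.
chr8:11312805-11312826: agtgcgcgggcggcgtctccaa

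The other type IV chains, Col4a3, Col4a4, Col4a5 and Col4a6, form the networks of more specialised basement membranes. Their means lay below the median intensity, and none passed the test in any comparison. Col4a6 ran from 15.8 to 70.2 in control cells at day 4 and from 80.0 to 135.9 at day 12, without overlap (1.71 ± 0.67, limma adjusted p = 0.269), and gave -0.38 ± 0.67 in KO cells with overlap. Col4a4 gave 1.62 ± 0.69 and 0.57 ± 0.69, Col4a3 -1.10 ± 0.84 and -1.01 ± 0.84, and Col4a5 -0.31 ± 0.29 and 0.20 ± 0.29 in control and KO cells. Col18a1, whose product carries the endostatin fragment, was bright at both days but did not pass the test over time (log2 fold change 0.11 in control, limma adjusted p = 0.92, and -0.59 in KO cells, limma adjusted p = 0.367).

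Among the laminins the alpha1 and beta1 chains rose in both conditions and the gamma1 chain in KO cells, and the other measured chains did not pass. Lama1 read 910.4, 468, 1066 and 454 in control cells at day 4 and 5249, 5431, 2899.9 and 4062 at day 12. In KO cells it read 1133, 478, 1279.7 and 549 at day 4 and 6999, 4318, 6970.1 and 4976 at day 12. All 8 arrays of day 12 exceeded all 8 of day 4, with a log2 fold change of 2.67 ± 0.39 in control (limma adjusted p = 0.00598) and 2.86 ± 0.39 in KO cells (limma adjusted p = 0.00174). Lamb1 read 2879, 2832, 3138 and 2673 in control cells at day 4 and 6548, 5975, 5480.2 and 5234 at day 12, and 2769, 3381, 2732 and 2870.1 against 8907, 4706, 6393 and 5231 in KO cells. The days did not overlap here either, and the log2 fold changes were 1.01 ± 0.17 (limma adjusted p = 0.0144) and 1.06 ± 0.17 (limma adjusted p = 0.0051). Without replicate 1 of clone 10 at day 12 or replicate 2 of clone 10 at day 4, the control value was just past the threshold, with limma adjusted p of 0.0526 and 0.0516. Of the dimmer Lamb1 probe sets, 2 rose by 1.45 and 1.82 in control cells, and the dimmest gave 0.68 with a limma adjusted p of 0.774 over every probe set.

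Lamc1, the gamma1 chain, read 1866, 973, 1938 and 958 in control cells at day 4 and 4084, 5624, 2170.4 and 4304 at day 12. In KO cells it read 1759.6, 912, 2115 and 894 at day 4 and 3872, 3577, 4646 and 4059.6 at day 12. The days did not overlap in either condition, but only the KO change passed the test (1.61 ± 0.37, limma adjusted p = 0.0341; control 1.50 ± 0.37, limma adjusted p = 0.0804), and the difference between the conditions was 0.11 ± 0.52 (limma adjusted p = 1.0). The KO call was lost without any 1 of 7 of the 8 KO arrays, every one but replicate 1 of clone 15 at day 4, with limma adjusted p from 0.0516 to 0.1097. The control change passed without replicate 1 of clone 15 at day 12 (limma adjusted p = 0.0490). Lama5, the alpha chain of the laminin that many epithelia and ES cells produce, gave 0.34 ± 0.35 in control and -0.04 ± 0.35 in KO cells, and neither value passed.

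The linkers moved less. Nid2 (nidogen 2) read 1901, 1977, 2114 and 2024 in control cells at day 4 and 3082, 3683, 2129 and 2666 at day 12, and 1653, 1886, 1583 and 1731 against 2666, 2703, 2814 and 2682 in KO cells. The arrays of the 2 days were apart in both conditions, and the KO change passed the test (0.67 ± 0.14, limma adjusted p = 0.0217) whereas the control change did not (0.50 ± 0.14, limma adjusted p = 0.117). The KO call was lost without replicate 1 of clone 10 at day 4 (limma adjusted p = 0.0618), replicate 1 of clone 15 at day 4 (0.0552) or at day 12 (0.0796), or replicate 2 of clone 15 at day 12 (0.0619). The control change passed without replicate 1 of clone 15 at day 12 (limma adjusted p = 0.0430). Nid1 gave -0.32 ± 0.20 and -0.21 ± 0.20, and Hspg2 gave 0.61 ± 0.32 and 0.70 ± 0.32, in control and KO cells, with limma adjusted p from 0.308 to 0.689.

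**Figure D1:**
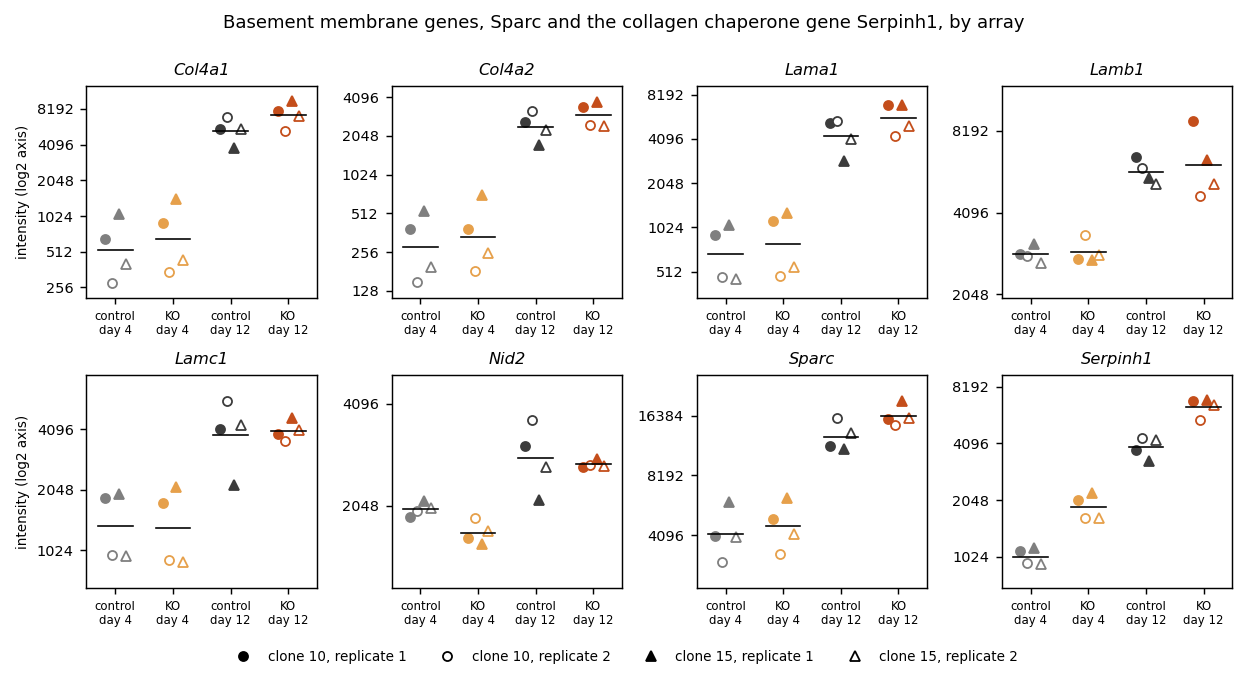
Intensity on each of the 16 arrays (log2 axis) for 7 basement membrane and matrix genes and Serpinh1, by group; circles are clone 10, triangles clone 15, filled symbols replicate 1, open symbols replicate 2, and bars are group means of log2 values. Col4a1, Col4a2 and Lama1 at day 12 lie above every day 4 array, and at day 4 their filled symbols lie above the open ones.

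Sparc, a collagen-binding glycoprotein that parietal endoderm makes in quantity, rose as well. It read 4059.6, 2981, 5984 and 4020.3 in control cells at day 4 and 11481, 16071, 11154 and 13427 at day 12. In KO cells it read 4956, 3301, 6269 and 4131 at day 4 and 15765, 14781, 19474 and 15979 at day 12. The lowest day 12 array, 11154, stood above the highest of day 4, 6269, and the log2 fold changes were 1.64 ± 0.22 (limma adjusted p = 0.00377) and 1.85 ± 0.22 (limma adjusted p = 0.000782). A second Sparc probe set gave 1.33 and 1.48, with limma adjusted p of 0.186 and 0.0857 over every probe set, and another, much dimmer one gave -0.00 and -0.17. With the mean of the 3 probe sets the control change was 0.99 (limma adjusted p = 0.0559). Fn1, fibronectin, was among the bright members but gave 0.14 ± 0.27 in control and -0.24 ± 0.27 in KO cells, with arrays of the 2 days overlapping.

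Of the 6 assembly genes 3 rose over time in both conditions. Serpinh1 (Hsp47) read 1093, 947, 1138 and 939.8 in control cells at day 4 and 3774, 4371, 3284 and 4284 at day 12. In KO cells it read 2038, 1650.0, 2238 and 1637 at day 4 and 6852, 5476, 6988 and 6548 at day 12. Within each condition the days were far apart relative to the spread of the arrays, with log2 fold changes of 1.93 ± 0.15 (limma adjusted p = 0.000164) and 1.78 ± 0.15 (limma adjusted p = 4.89e-05). P4ha2, the catalytic alpha subunit of prolyl 4-hydroxylase II, gave 1.02 ± 0.15 (limma adjusted p = 0.00722) and 1.09 ± 0.15 (limma adjusted p = 0.00207), from arrays given with the KO comparison. P4ha1, the alpha subunit of the main isoenzyme, read 1132, 1221, 1378 and 1476 in control cells at day 4 and 1772, 2499.5, 2197 and 2438 at day 12, and 974, 1297, 1065 and 1250.4 against 1814, 1666, 2241 and 1869 in KO cells. The days did not overlap, and the log2 fold changes were 0.77 ± 0.14 (limma adjusted p = 0.0200) and 0.73 ± 0.14 (limma adjusted p = 0.0143).

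The P4ha1 call in control cells was lost without replicate 1 of clone 10 (limma adjusted p = 0.0668), replicate 1 of clone 15 (0.0507) or replicate 2 of clone 10 (0.0589) at day 4, and without replicate 2 of clone 10 (0.0669) or of clone 15 (0.0673) at day 12. That in KO cells was lost without replicate 1 of clone 15 at day 12 (limma adjusted p = 0.0570), and both were lost with the mean of its 2 probe sets (limma adjusted p of 0.201 and 0.174). The lysyl hydroxylase genes Plod1 and Plod2 gave 0.46 ± 0.27 and 0.46 ± 0.19 in control cells and 0.35 ± 0.27 and 0.61 ± 0.19 in KO cells, none past the threshold. P4ha3, whose mean lay below the 25th percentile of intensity, gave -1.31 ± 0.70 and 0.37 ± 0.70, which did not pass.

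Of the 11 fibroblast collagens, 0 were called over time with limma in control cells (0.654% of all genes were higher and 0.341% lower). In KO cells 0 were called too (2.24% and 1.03% of all genes). At such shares 0 of 11 does not set these genes apart from others. At an unadjusted p under 0.05 there were 2 and 3, where 13.9% and 15.8% of all genes stood. Their median log2 fold change was 0.17 in control and 0.36 in KO cells. Of the 22 basement membrane genes 4 were higher in control (0.654% of all genes) and 6 in KO cells (2.24% of all genes), with medians of 0.39 and 0.29. The KO median was thus below that of the fibroblast collagens. A log2 fold change above 0 was found for 16 and 14 of the 22 in control and KO cells. Among the 11 fibroblast collagens it was found for 11 and 10. Over the members above the median intensity the medians were 0.50 and 0.67 for 13 basement membrane genes and 0.17 and 0.36 for 9 fibroblast collagens.

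Col1a1 and Col1a2 encode the chains of type I collagen. Col1a1 read 299.6, 108, 289 and 98.6 in control cells at day 4 and 277, 414, 167 and 425 at day 12, and 429, 174, 334 and 105 against 278, 512, 274 and 372 in KO cells. The days overlapped, and the fold changes of 0.79 ± 0.50 and 0.62 ± 0.50 (limma adjusted p of 0.54 and 0.625) combine opposite signs, since replicate 1 alone gave -0.45 and -0.46 and replicate 2 alone gave 2.03 and 1.69. Col1a2 read 496, 368, 452 and 276 in control cells at day 4 and 446, 503, 484 and 524 at day 12, with overlapping days and log2 fold changes of 0.33 ± 0.27 and 0.36 ± 0.27 in control and KO cells. Col3a1, the type III chain, read 137, 140.0, 129 and 108 against 148, 159, 102 and 159 in control cells, with log2 fold changes of 0.13 ± 0.21 and 0.18 ± 0.21. Neither gene passed in either condition.

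Among the minor fibrillar and microfibrillar chains, Col6a1 came nearest to the threshold. It read 80.9, 76.6, 69.1 and 41.9 in control cells at day 4 and 163, 107, 127 and 94.7 at day 12, and 92.6, 71.3, 80.1 and 33.1 against 139.6, 159, 107 and 106 in KO cells. The days did not overlap, and the log2 fold changes were 0.89 ± 0.26 (limma adjusted p = 0.134) and 0.96 ± 0.26 (limma adjusted p = 0.0653). With the clone and replicate number as a block across days both passed (limma adjusted p of 0.0488 and 0.0215), and the KO change also passed without replicate 1 of clone 15 at day 4 (0.0359). Col6a2 and Col6a3, its partners in type VI collagen, gave 0.30 ± 0.28 and 0.02 ± 0.25 in control cells and 0.33 ± 0.28 and 0.23 ± 0.25 in KO cells. Col5a1 gave 0.40 ± 0.16 and 0.58 ± 0.16 (limma adjusted p of 0.289 and 0.0773) and Col5a2 0.17 ± 0.17 and 0.58 ± 0.17 (limma adjusted p of 0.719 and 0.0926). In KO cells Col5a1 passed with the block across days (limma adjusted p = 0.0460) and without replicate 1 of clone 15 of the controls at day 4 (0.0491), and Col5a2 passed without replicate 1 of clone 15 of the KO cells at day 4 (0.0391).

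**Figure D2:**
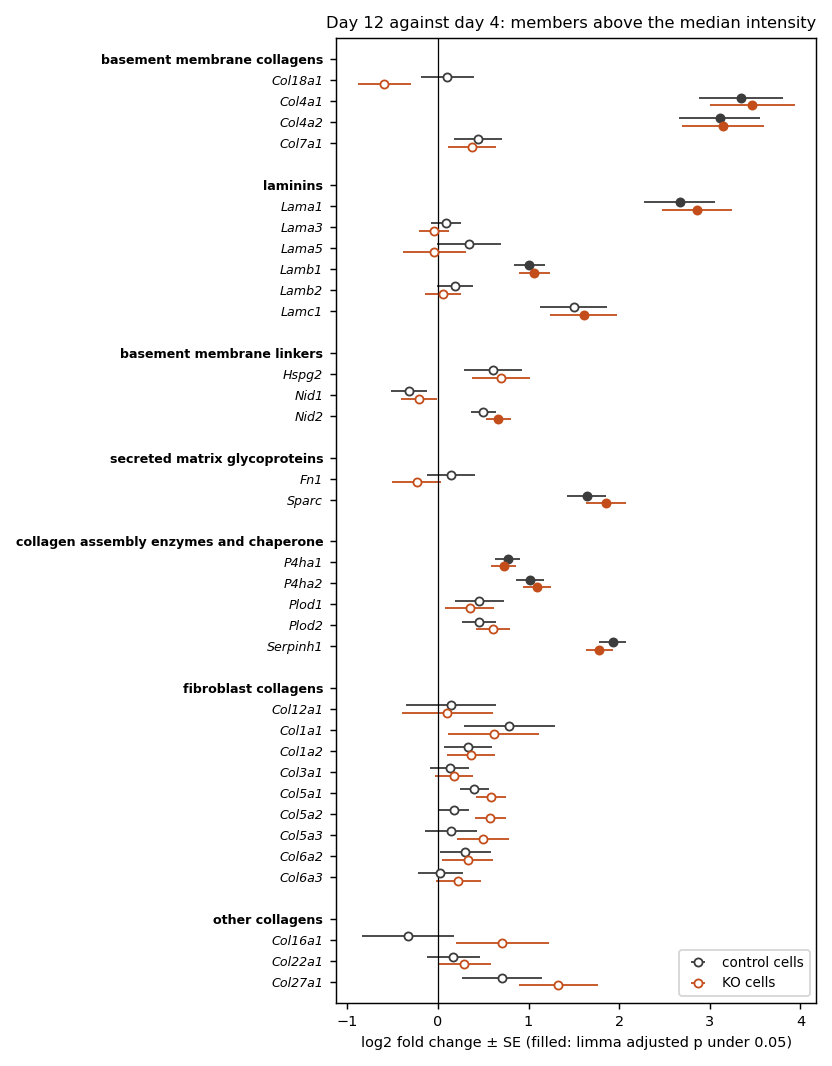
Log2 fold change ± SE of day 12 against day 4 in control (black) and KO cells (orange) for the 32 members with a mean above the median intensity, grouped by role; filled points have a limma adjusted p under 0.05. Col4a1, Col4a2 and Lama1 lie between 2.67 and 3.47, and none of the 9 fibroblast collagens plotted is filled.

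The mean log2 intensity of the lists on each array is given as values. The 22 basement membrane genes averaged 7.19 to 7.84 on the control arrays of day 4 and 7.85 to 8.47 on those of day 12, so the 2 days did not overlap, with a difference of 0.66. In KO cells they averaged 7.28 to 7.95 and 8.13 to 8.32, a difference of 0.65. Restricted to the 13 genes above the median intensity the differences were 1.045 and 1.005. The 11 fibroblast collagens averaged 6.94 to 7.37 and 7.31 to 7.68 in control cells and 6.85 to 7.56 and 7.40 to 7.89 in KO cells, differences of 0.32 and 0.34 with overlapping arrays. These means are over unlike genes and have no test, and the large changes of Col4a1, Col4a2 and Lama1 weigh in the basement membrane means.

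Other cell types are read from their markers. In bulk RNA, more cells of a type cannot be told apart from more RNA of a gene per cell. All 19 listed markers of primitive and parietal endoderm were measured. Over time 10 of them were higher in control (0.654% of all genes) and 16 in KO cells (2.24%), with 0 lower (0.341% and 1.03%). Their mean log2 intensity ran from 6.43 to 7.15 on control and from 6.13 to 6.87 on KO arrays of day 4, and from 8.45 to 8.71 and 8.83 to 9.54 at day 12. Gata4, an endoderm transcription factor, was at 56.7 to 141 in control cells at day 4 and 256 to 396 at day 12. Some markers were dim at day 4, such as Afp at 6.68 to 13.9 on KO arrays, below the 25th percentile of 28.3. As a list, the endoderm markers rose over time with the basement membrane genes, and their part in the result was not tested.

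Feeder fibroblast markers were measured for 24 of 25 genes. Their mean log2 intensity was 6.34 to 6.80 and 6.43 to 6.89 on control arrays of day 4 and day 12, and 6.36 to 6.52 and 6.48 to 7.10 on KO arrays, so the days overlapped in both. Over time only Acta2 of that list, smooth muscle actin, passed (0.70 ± 0.13 in control, limma adjusted p = 0.0233, and 0.81 ± 0.13 in KO cells, limma adjusted p = 0.00550). That is 1 of 24 in each condition, where 0.654% and 2.24% of all genes were higher. The list holds dim and bright genes. Dcn was at 4.18 to 114.6 over the 16 arrays, Lum at 6.84 to 67.1 and Fap at 1.91 to 59.2, ranges that reach below the 25th percentile of 28.3. Acta2 was at 1324 to 3162, Tagln at 558 to 1586, Thbs1 at 401 to 1239 and Lox at 344 to 788. S100a4, Tnc and Mfap5 also lay above the median intensity on every array. Thy1 and Pdgfrb lay near or above the median intensity, at 113 to 612 and 65.2 to 136.5. Whether feeders contributed to the fibroblast collagens was not tested.

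**Figure D3:**
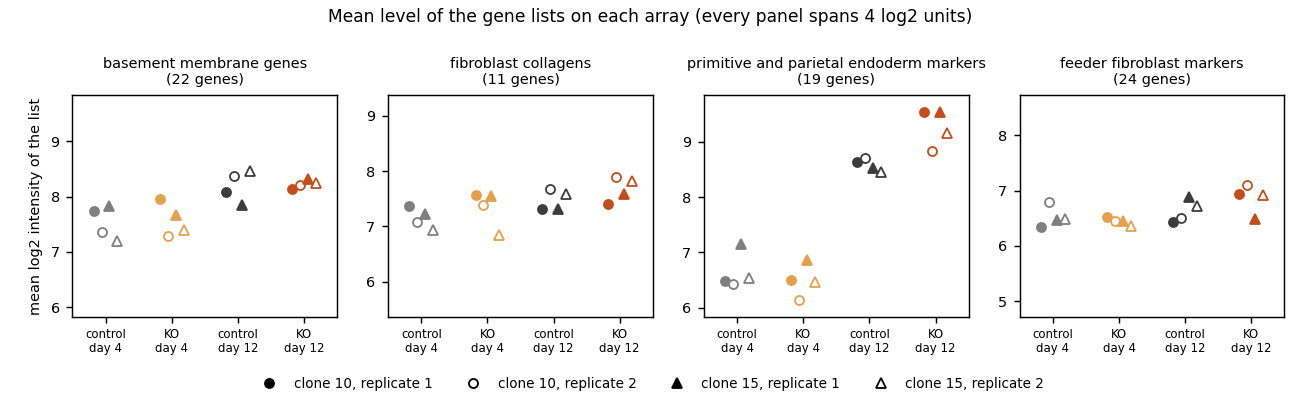
Mean log2 intensity of 4 gene lists on each array, by group, with every panel spanning 4 log2 units; circles are clone 10, triangles clone 15, filled symbols replicate 1, open symbols replicate 2. Endoderm markers go from 6.43 to 7.15 to 8.45 to 8.71 in control cells, and the feeder markers overlap between the days.

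The day 4 arrays of replicate 1 and replicate 2 differed in several of the members examined, in both clones and both conditions. The share of all genes that separated in this way was not counted, so the split is not shown to be particular to matrix genes. The 4 replicate 1 arrays exceeded the 4 replicate 2 arrays without overlap by 2.83 times for Col1a1, 2.70 for Col4a1, 2.54 for Col4a2, 2.24 for Lama1, 2.12 for Lama5, 2.05 for Lamc1, 1.91 for Col18a1, 1.66 for Hspg2, 1.62 for Col1a2, 1.60 for Fn1 and 1.59 for Plod1. Among the fibroblast collagens examined, Col1a1 and Col1a2 separated in this way, while Col3a1, Col5a1, Col5a2, Col6a1, Col6a2 and Col6a3 overlapped, with ratios from 0.957 to 1.53. For Lamb1, Nid2, P4ha2 and Serpinh1 the 2 sets also overlapped, with ratios from 0.947 to 1.24. At day 12 the ratio was 1.02 for Col4a1 and 1.12 for Lama1, with overlap. Replicate 1 was then the lower without overlap for Col1a1 (0.570), Hspg2 (0.665), Col6a3 (0.668) and Col3a1 (0.733). The labels give no reason for the difference between replicate numbers.

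Within each replicate number Col4a1, Col4a2, Lama1, Lamb1, Lamc1, Nid2, Sparc and Serpinh1 rose in both conditions, by different amounts. In control cells Col4a1 rose by 2.47 within replicate 1 and 4.21 within replicate 2 on the log2 scale. Lama1 rose by 1.99 and 3.35, Sparc by 1.20 and 2.09 and Lamc1 by 0.65 and 2.35. Lamb1, at 0.99 and 1.02, and Serpinh1, at 1.66 and 2.20, were closer. Other basement membrane genes differed in sign in control cells, with -0.58 and 0.79 for Col18a1, -0.38 and 1.06 for Lama5 and -0.78 and 0.14 for Nid1. Within clones 10 and 15 the rise of Col4a1 was 3.87 and 2.81, that of Lama1 3.03 and 2.30 and that of Serpinh1 2.00 and 1.86. Fitted within 1 clone alone, no member passed the test in any comparison, and 0 to 1 of all genes were higher over time.

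In KO cells P4ha2 and Serpinh1, which act in collagen folding, were higher at both days, and no laminin, type IV collagen or fibroblast collagen passed the test. At day 4, 2 of 63 members, P4ha2 and Serpinh1, were higher in KO cells (0.566% of all genes were) and 0 were lower (0.055% of all genes). At day 12 these and Col13a1 were higher, 3 of 63 (2.18% of all genes), and 0 were lower (0.896% of all genes). With the 8 pairs as a block the members were 2 higher (0.737% of all genes) and 0 lower (0.236%) at day 4, and 3 higher (4.67%) and 2 lower (3.44%) at day 12. With the pairs as a random block they were 2 higher (1.52%) and 0 lower (0.594%) at day 4, and 5 higher (5.28%) and 1 lower (2.97%) at day 12. The median over members was 0.08 at day 4 and 0.15 at day 12, against 0.01 over all genes at both days. At an unadjusted p under 0.05 there were 6 and 9 members, where 8.53% and 14.8% of all genes stood.

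P4ha2 read 399, 386, 388 and 481 in control cells at day 4 against 779, 885, 1042 and 844 in KO cells. At day 12 it read 801, 996, 707 and 858 in control cells and 2134, 1731, 2162 and 1572 in KO cells. The conditions did not overlap at either day, and the control arrays of day 12 overlapped the KO arrays of day 4. The log2 fold change was 1.10 ± 0.15 at day 4 (limma adjusted p = 0.0042) and 1.17 ± 0.15 at day 12 (limma adjusted p = 0.00132), higher in 4 of 4 pairs at both days. Both changes passed in all 16 fits that left out 1 array, and with only the 8 arrays compared the day 4 change did not (limma adjusted p = 0.0643). Its single probe set gives no second reading.

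Serpinh1 was higher in KO cells at both days in the arrays listed above, with no overlap between the conditions. The log2 fold change was 0.87 ± 0.15 at day 4 (limma adjusted p = 0.017) and 0.72 ± 0.15 at day 12 (limma adjusted p = 0.0192), again in 4 of 4 pairs. A second probe set gave 0.84 and 0.79. With only the 8 arrays compared neither call was kept (limma adjusted p of 0.231 and 0.0796). The day 4 call was lost without the KO arrays of replicate 1 of clone 10 (limma adjusted p = 0.0724) or clone 15 (0.0668), or the control arrays of replicate 2 of clone 10 (0.0588) or clone 15 (0.0600). The day 12 call was lost without the control arrays of replicate 1 of clone 10 (0.0549) or clone 15 (0.0571), the KO arrays of replicate 1 of clone 10 (0.0654) or clone 15 (0.0646), or the KO array of replicate 2 of clone 15 (0.0531). Within replicates 1 and 2 the day 12 effect was 0.97 and 0.47, and for P4ha2 it was 1.51 and 0.84.

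The 250 bases before the RefSeq starts of both genes (GRCm38.p6) are shown because these 2 members were both called higher over time and in KO cells. The windows were searched on both strands for 6 motifs, the CCAAT box, the GC box GGGCGG, the TATA box TATAAA, the core ACGTG that hypoxia response elements share, the inverted heat shock units GAANNTTC and the GATA motif GATAA. Capitals mark matches to the GC box or its reverse complement CCGCCC, and to ACGTG or its reverse complement CACGT. The sequences run 5′ to 3′ on the strand of the gene, minus for Serpinh1 and plus for P4ha2.
Serpinh1, chr7:99353240-99353489: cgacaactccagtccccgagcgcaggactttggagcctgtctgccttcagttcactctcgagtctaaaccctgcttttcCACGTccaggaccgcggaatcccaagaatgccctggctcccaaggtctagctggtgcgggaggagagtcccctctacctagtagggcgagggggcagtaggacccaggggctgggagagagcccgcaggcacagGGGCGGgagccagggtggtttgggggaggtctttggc
P4ha2, chr11:54100674-54100923: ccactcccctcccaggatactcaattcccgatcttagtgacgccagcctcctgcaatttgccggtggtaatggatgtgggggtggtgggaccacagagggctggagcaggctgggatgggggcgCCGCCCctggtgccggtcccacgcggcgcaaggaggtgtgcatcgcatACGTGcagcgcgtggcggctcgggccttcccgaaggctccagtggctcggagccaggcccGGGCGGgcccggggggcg

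Serpinh1 had 1 match to GGGCGG, 37 to 32 bases before the start, and 1 to ACGTG on the other strand, 171 to 167 bases before it. P4ha2 had 2 matches to GGGCGG, 126 to 121 bases before the start on the other strand and 18 to 13 bases before it, and 1 to ACGTG, 78 to 74 bases before it. Of 32851 RefSeq windows of the same length, 32.7% hold GGGCGG and 16.6% hold ACGTG on either strand. The CCAAT box, the TATA box, the heat shock units in the order searched and the GATA motif were in neither window. They are held by 33.9%, 12.4%, 6.69% and 22.6% of windows, respectively. The same heat shock units in the opposite order were not searched for, although the printed P4ha2 window holds them. These matches are descriptions of the sequence only.

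Col13a1 encodes a transmembrane collagen of cell junctions. It read 77.2, 22.6, 59.8 and 41.9 in control cells at day 4 against 126, 97.2, 188 and 73.6 in KO cells, and 26.3, 55.7, 28.9 and 41.9 against 154, 138, 126 and 91.1 at day 12. The conditions overlapped at day 4 (1.32 ± 0.40, limma adjusted p = 0.233) and not at day 12 (1.78 ± 0.40, limma adjusted p = 0.0304), and the gene was higher in KO in 4 of 4 pairs at both days. Its control arrays lay below the median intensity of 93.3, some of them below the 25th percentile. The day 12 call was lost without the control arrays of replicate 1 of clone 10 (limma adjusted p = 0.0918), replicate 1 of clone 15 (0.0837) or replicate 2 of clone 15 (0.0636). It was also lost without the KO arrays of replicate 1 of clone 10 (0.0979), replicate 1 of clone 15 (0.0861) or replicate 2 of clone 10 (0.0826), and when every probe set was tested (0.0568).

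Col18a1 and Fn1 were lower in KO cells at day 12 only once the pairs of arrays were taken into account. In those fits 3.44% of all genes were lower with the pairs as a block and 2.97% with a random block. The share of members called lower was not above that of all genes in either fit. Col18a1 read 3950.2, 2050.3, 3886 and 1773 in control cells at day 4 and 3317, 1976, 3270.3 and 1760.0 in KO cells. At day 12 it read 3141, 3709.6, 2196 and 2921 in control cells against 1493, 1944, 1565 and 1617 in KO cells, with no overlap. The day 12 difference was -0.84 ± 0.29 (limma adjusted p = 0.185), and with the 8 pairs as a block the limma adjusted p was 0.00759, or 0.0266 with a random block. A second probe set gave -0.76 at day 12. All 4 pairs were lower at each day, and the value at day 4 was -0.14 ± 0.29.

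Fn1 read 10066, 5839.8, 8699 and 4934 in control cells and 7506, 5143, 6738 and 4579 in KO cells at day 4. At day 12 it read 8449, 11190.0, 5067 and 7756 against 4319, 6744, 4098 and 5189.5. The conditions overlapped at both days, while within every one of the 8 pairs the KO array was the lower. The differences were -0.27 ± 0.27 at day 4 and -0.65 ± 0.27 at day 12 (limma adjusted p = 0.264), and with the pairs as a block the latter gave 0.0206, and 0.0566 with the pairs as a random block. A second, dimmer probe set gave -0.53.

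**Figure D4:**
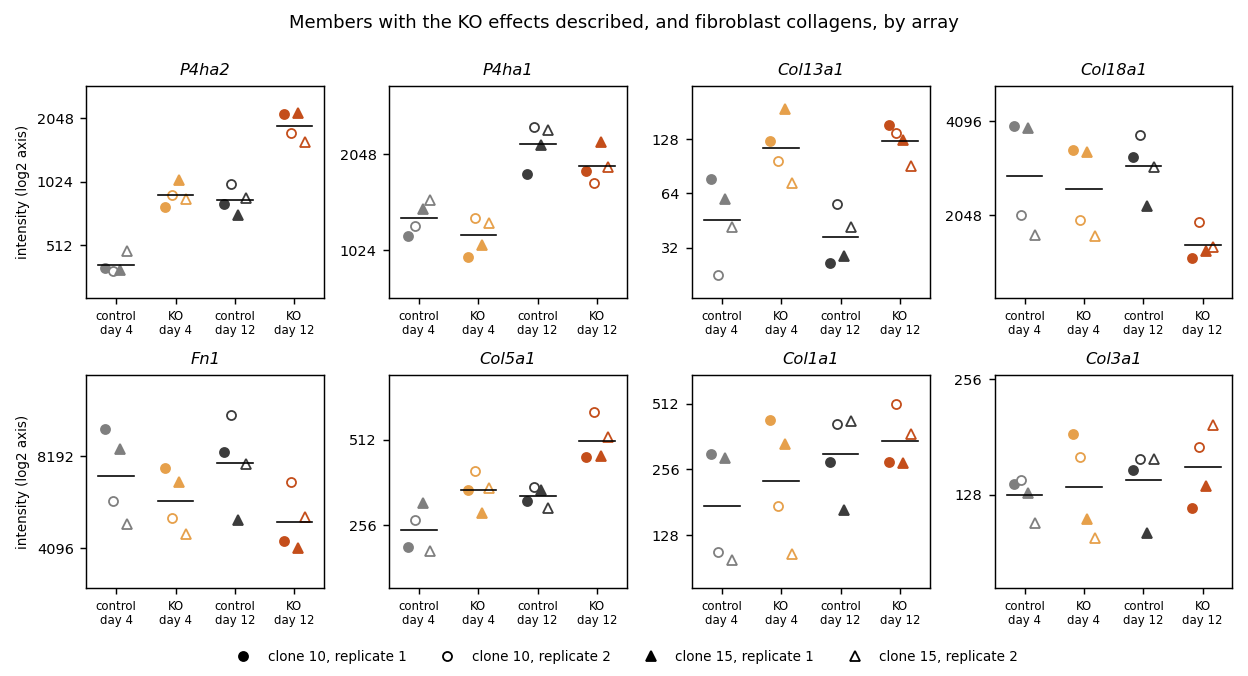
Intensity on each of the 16 arrays (log2 axis) for 8 members, by group, with circles for clone 10, triangles for clone 15, filled symbols for replicate 1, open symbols for replicate 2 and bars for group means of log2 values. P4ha2 separates KO from control at both days, Col13a1 and Col18a1 at day 12, and Col1a1 and Col3a1 overlap between the conditions.

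The type IV collagen and laminin genes that rose over time did not differ between KO and control cells past the threshold. The log2 fold change of KO against control was 0.32 ± 0.47 at day 4 and 0.45 ± 0.47 at day 12 for Col4a1, and 0.27 ± 0.45 and 0.31 ± 0.45 for Col4a2. Lama1 gave 0.22 ± 0.39 and 0.41 ± 0.39, Lamb1 0.03 ± 0.17 and 0.08 ± 0.17, Lamc1 -0.04 ± 0.37 and 0.07 ± 0.37, and Sparc 0.14 ± 0.22 and 0.35 ± 0.22. At day 12 the Col4a1 value was 0.91 within replicate 1 and -0.01 within replicate 2, and that of Lama1 was 0.84 and -0.02. Within the pairs of day 4 the KO array was the higher in 4 of 4 for Col4a1, Col4a2 and Lama1, by 0.104 to 0.464, 0.0036 to 0.432 and 0.0293 to 0.316. At day 12 it was the higher in 3 of 4 for each. With the pairs as a block their SE fell to between 0.21 and 0.24, and limma adjusted p were 0.609, 0.631 and 0.727 at day 4 and 0.307, 0.433 and 0.319 at day 12.

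Among fibroblast collagens, 0 of 11 passed the test at either day. Of all genes 0.566% and 2.18% were higher and 0.055% and 0.896% lower at the 2 days, so this 0 does not set the group apart. At an unadjusted p under 0.05 there were 2 and 3, where 8.53% and 14.8% of all genes stood. Col5a1, a chain that starts type I fibrils, read 215, 266, 305 and 207 in control cells at day 4 and 341, 397, 283 and 345 in KO cells. At day 12 it read 312, 349.7, 341 and 295 against 445, 639, 449 and 523. The conditions were apart at day 12, in 4 of 4 pairs, at 0.65 ± 0.16 (limma adjusted p = 0.0508), with 0.0129 when the pairs were a random block, 0.0312 with the block across days and 0.0459 without the clone term. Without replicate 1 of clone 15 of the controls at day 4 it was 0.0312. A second bright Col5a1 probe set gave -0.10 at day 12.

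Col5a2, its partner chain, read 235, 297, 246 and 236 in control and 358, 431, 349 and 345 in KO cells at day 12, without overlap. Its log2 fold change was 0.55 ± 0.17 (limma adjusted p = 0.12, and 0.0467 with the random block), after 0.14 ± 0.17 at day 4. Col6a2 gave 0.66 ± 0.28 and 0.69 ± 0.28 at the 2 days, neither past the threshold. Col1a1 gave 0.38 ± 0.50 and 0.21 ± 0.50, Col1a2 -0.14 ± 0.27 and -0.10 ± 0.27, and Col3a1 0.07 ± 0.21 and 0.12 ± 0.21. P4ha1, which rose over time with P4ha2, gave -0.19 ± 0.14 and -0.23 ± 0.14 between the conditions.

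None of 19 endoderm markers passed between conditions at day 4, where 0.566% of all genes were higher and 0.055% lower. The list averaged 6.43 to 7.15 on control and 6.13 to 6.87 on KO arrays of that day. At day 12, 3 of the 19, Gata6, Amn and Lrp2, were higher in KO cells (2.18% of all genes), by 0.98, 1.08 and 1.14 on the log2 scale. A log2 fold change above 0 was found for 18 of the 19, with a median of 0.67. The list then averaged 8.45 to 8.71 on control and 8.83 to 9.54 on KO arrays, without overlap. The 22 basement membrane genes averaged 7.85 to 8.47 on control and 8.13 to 8.32 on KO arrays at day 12, with overlap. Of the feeder markers Mfap5, a microfibril protein, was higher in KO cells at both days (0.86 and 1.003), and the chemokine gene Cxcl12 was lower at day 12 (-0.80). That is 1 of 24 higher at each day, where 0.566% and 2.18% of all genes were, and 1 lower, where 0.896% were. The part of either cell type in the KO differences of P4ha2, Serpinh1 and Col13a1 was not tested.

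**Figure D5:**
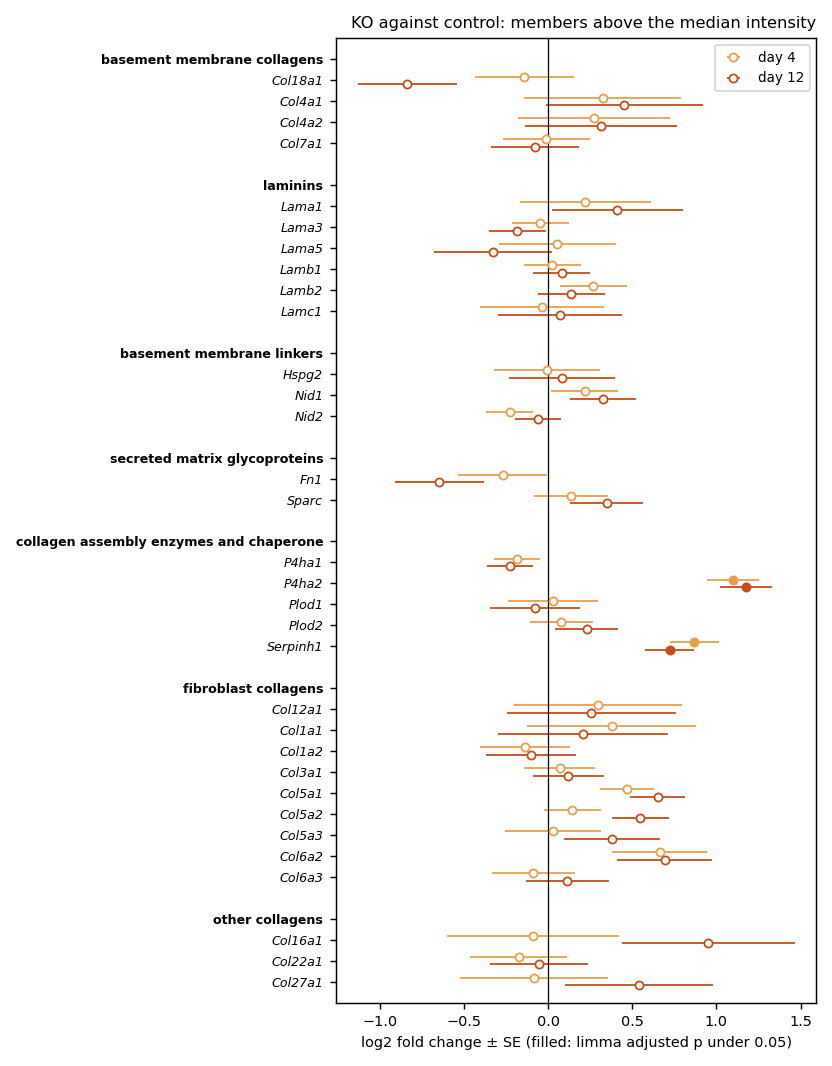
Log2 fold change ± SE of KO against control at day 4 (light orange) and day 12 (dark orange) for the 32 members with a mean above the median intensity, grouped by role; filled points have a limma adjusted p under 0.05. P4ha2 and Serpinh1 are filled at both days, and Col18a1 at -0.84 and Fn1 at -0.65 are the lowest values of day 12.

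No member responded to KO differently at the 2 days or in the 2 clones beyond the threshold. The difference of the KO effect, day 12 minus day 4, was called for 0 of 63 members and 0.0% of all genes with limma, and at an unadjusted p under 0.05 there were 1 member and 4.57% of all genes. That difference was 0.07 ± 0.22 for P4ha2, -0.15 ± 0.21 for Serpinh1, 0.46 ± 0.56 for Col13a1 and -0.70 ± 0.42 for Col18a1. Between the clones the KO effect was called for 0 members at each day, with 1 at day 4 and 5 at day 12 at an unadjusted p under 0.05, where 3.13% and 2.89% of all genes stood. Between untreated cells of the clones 0 members were called, with 4 at an unadjusted p under 0.05 (of all genes 0.0605% were called and 5.21% had such a p).

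The remaining members, outside the set list of genes, were mostly dim, and none passed. Over time in control cells the lowest log2 fold changes among them were Col4a3 (-1.10), Lama4 (-0.93) and Lama2 (-0.50), and the highest Col9a2 (2.21), Col17a1 (2.00) and Col4a6 (1.71). In KO cells they were Col4a3 (-1.01), Col14a1 (-0.70) and Col20a1 (-0.54), and Col6a4 (1.83), Col17a1 (1.52) and Col27a1 (1.33). Between conditions at day 4 they were Col9a1 (-1.24), Col19a1 (-0.86) and Col6a4 (-0.77), and Col9a2 (1.28), Col11a2 (1.25) and Col10a1 (1.09). At day 12 they were Col9a2 (-1.21), Col9a1 (-1.20) and Col4a6 (-1.19), and Col10a1 (0.99), Col16a1 (0.95) and Col26a1 (0.88). For the difference between the days they were Col9a2 (-2.49), Col4a6 (-2.09) and Col11a2 (-1.43), and Col6a4 (1.50), Col16a1 (1.04) and Col19a1 (0.91). Without replicate 1 of clone 15 of the KO cells at day 4 Col27a1 passed over time in KO cells (limma adjusted p = 0.0424), and without replicate 2 of clone 10 of the KO cells at day 4 Col9a1 passed as lower at day 12 (0.0293).

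Other genes of the pathway were counted in the same fit. Of 28 listed genes of further collagen processing 24 were measured, and 4 of them rose over time in KO cells (2.24% of all genes did). They were the prolyl 3-hydroxylase gene P3h1 (0.75), the cyclophilin B gene Ppib (0.36), the collagen galactosyltransferase gene Colgalt1 (1.03) and the lysyl oxidase-like gene Loxl3 (0.90). None of the 24 passed in control cells over time or between conditions, where 6, 2 and 6 had an unadjusted p under 0.05 over time in control, at day 4 and at day 12. Such a p was held by 13.9%, 8.53% and 14.8% of all genes, of which 0.654%, 0.566% and 2.18% were called higher and 0.341%, 0.055% and 0.896% lower. Of 23 matrix receptors, mainly integrins, 22 were measured and 0 passed in the 4 comparisons with limma, with 3, 5, 0 and 4 at an unadjusted p under 0.05 over time in control, over time in KO, at day 4 and at day 12. For all genes the shares were 13.9%, 15.8%, 8.53% and 14.8%. Those called higher were 0.654%, 2.24%, 0.566% and 2.18% of all genes, and those called lower 0.341%, 1.03%, 0.055% and 0.896%. Of 16 matrix proteases and inhibitors 14 were measured, and the metalloprotease inhibitor gene Timp2 rose over time by 1.39 in control and 1.45 in KO cells and was higher in KO cells at day 12 (0.64). The plasminogen activator gene Plat, also on the endoderm list, rose by 1.46 and 1.59, and the metalloprotease gene Adam19 was lower in KO cells at day 12 (-0.81). Thus 2 of the 14 rose over time in control and in KO cells (0.654% and 2.24% of all genes). At day 12, 1 was higher (2.18%) and 1 lower (0.896%) in KO cells.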

How the data were processed

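Expression Console and RMA are named, without order or settings, per the submitters' processing notes. The authors deposited linear intensity per probe set, and once sorted all 16 arrays hold identical values, as quantile normalization leaves them. The series' text names the 430A 2.0 array, but the 45101 probe sets of the table are those of a larger array. The fit had been planned for log2 values, so the intensities were log2-transformed with no offset. Probe sets were named by the platform annotation.

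Differences were tested with limma 3.58.1 (R 4.3.3, statmod 1.5.0), with 4 group means and the clone as terms over all 16 arrays, tested on simulated data first. The members and lists were chosen with earlier results of these data known. Named genes were those past the threshold in any comparison, a set list of 26 genes, and the 3 highest and 3 lowest others in each comparison. Same-numbered arrays of 1 clone and day were taken as 8 pairs, which the labels do not state. Over genes above the median intensity, residuals of control and KO arrays correlated at 0.548 to 0.613 at day 4 and 0.128 to 0.319 at day 12. Over all genes the correlations were 0.0385 to 0.0615 at day 4 and -0.0764 to -0.0429 at day 12. Arrays outside the pairs were not compared in this way, so these values do not show that the pairing is real. Of the members 46 matched a RefSeq promoter. Alternatives were blocks, no clone term, subsets of arrays, an offset of 16, a floor at the 25th percentile, a variance trend and other probe set rules. The number of arrays limits the precision.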

Additional observations from a re-analysis of the deposited data

Results flagged for a closer look

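In 4 of 108 groups of 4 arrays that were checked, 1 array stood apart from the others by Dixon's test, where chance flags about 1 in 20. Col3a1 on the control array of day 12, clone 15, replicate 1, was lowest at 101.73, with the others at 148.5 to 158.97. Col5a2 on the KO array of day 12, clone 10, replicate 2, was highest at 430.56, with the others at 345.26 to 357.72. P4ha2 on the control array of day 4, clone 15, replicate 2, was highest at 480.63, with the others at 385.97 to 399.26, and all 4 lay below the KO arrays. P4ha3 on the control array of day 12, clone 10, replicate 1, was highest at 21.604, with the others at 8.6397 to 9.7849, all below the 25th percentile of intensity.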

How the results depend on the processing

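Of the 23 changes past the threshold none reversed under any alternative. Leaving out 1 array gave 1 to 2 members higher in KO cells at day 4, 1 to 4 higher and 0 to 1 lower at day 12, and 6 to 10 and 7 to 12 higher over time in control and KO cells. With all arrays 0.566%, 2.18%, 0.654% and 2.24% of all genes were higher in these 4 comparisons, and 0.896% were lower at day 12. The 4 at day 12 included Col5a1. Within clone 10 or clone 15 alone 0 members were higher in any of the 4 comparisons. With only the 8 arrays compared 8 of 23 changes kept their call, and the members higher were 0 at day 4 and, over time, 1 in control and 5 in KO cells. Shares of all genes in the fits on fewer arrays are not given here. The counts of members in them thus do not separate a change in the members from one in all genes. With the 8 pairs as a fixed block 2 members were lower at day 12 (3.44% of all genes). With a random block 5 were higher (5.28%) and 1 lower (2.97%) there. No block lost a call, but the fixed block of pairs covered only the 5 calls between conditions, since each pair lies within 1 day. The basement membrane means moved to 1.045 and 1.0047 over the genes above the median. The mean of all probe sets, or testing each, kept 19 of 23. The offset, the floor, the variance trend, no clone term and the block across days kept all 23. Few arrays and dim probe sets limit what could be called.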
